A study of Homo sapiens with 10 samples.

Results

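PUS7 peaks in protein-coding genes are the places in ordinary genes, rather than in tRNA or other small RNA genes, where iCLIP of FLAG-tagged PUS7 gave a peak. A peak was taken as a member when it overlapped a RefSeq protein-coding gene by at least 1 base, overlapped no small RNA gene or small RNA pseudogene, lay over 200 bases from any tRNA gene and was not on the mitochondrial chromosome. This rule kept 913 of the 2048 peaks in the 5 deposited lists, in 746 of 20037 protein-coding genes (3.72%). It used neither the signal, the strand nor the recurrence of a peak.

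PUS7 is a pseudouridine synthase, an enzyme that turns uridine into its isomer pseudouridine without a guide RNA. Its best known substrates are tRNAs, but it also modifies messenger RNAs, at sites that share a short sequence usually written UNUAR. iCLIP joins protein to RNA with ultraviolet light in living cells and sequences the fragments that stay attached. A peak is therefore a sign of contact and not of modification. Whether a given peak exceeds what a mock pull-down would give was not tested.

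The sample labels and the series title describe iCLIP and were followed here, although the series' design text describes another assay, small RNA sequencing of wild-type and PUS7 knockout stem cells. By the labels, the lists came from PUS7 knockout cells carrying FLAG-PUS7, with 3 libraries of HEK 293T, a transformed embryonic kidney line, and 2 libraries of H9, a human embryonic stem cell line. All 5 went through ultraviolet crosslinking at 254 nm and 200 mJ/cm2 and an anti-FLAG pull-down, with the cells of 2 plates of 15 cm per replicate. The 3 HEK 293T and 2 H9 knockout libraries without FLAG-PUS7 had no peak list among the files used here, so that no list of a mock pull-down stands beside the members. How FLAG-PUS7 was introduced, its level, and whether a knockout line was 1 clone were stated by neither the labels nor the protocols. Nothing states that replicates were grown apart, so the spread between them may be technical.

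The first H9 library stood apart from the rest and held 95.4% of all members. Its list had 1605 peaks and began at a signal of 3, whereas the second H9 list had 199 peaks and began at 6. The 293T lists had 120, 85 and 39 peaks and began at 9, 13 and 22. Signal is the authors' value for a peak, a whole number in each 200-base bin and the mean over bins in longer peaks. It is not scaled for depth, which is unknown, so that no fold is taken between libraries. Of the members, 880 were 1 bin long.

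A few members at gene starts could be shown by sequence, because the RefSeq promoter table of GRCh38.p14 holds the first bases of many transcripts. In the first H9 library, 25 such starts in 24 genes had their first 30 transcribed bases wholly inside a peak on the gene's own strand. Only a part of these 25 starts is printed below, chosen after their values were seen. The printed starts include the histone genes with the highest signals. Antisense peaks over a gene start, such as that at MYOCOS, and peaks over only part of these bases were left out. Sequences run 5′ to 3′ on the gene's strand, and capitals mark a match to TNTAA or TNTAG, the DNA spelling of the PUS7 site. The printed starts include the only 2 of the 25 with a match, so their share of matches is not that of all 25.
H4C11 (chr6:27824092-27824121, plus strand): acaaagcgttgggtgagactcctcttgctc
H4C12 (chr6:27831531-27831560, minus strand): acaaagcgttgggtgagactcctcttgctc
H4C14 (chr1:149832657-149832686, plus strand): agaagctgtctatcgggctccagcggtcat
H4C15 (chr1:149861130-149861159, minus strand): agaagctgtctatcgggctccagcggtcat
H4C8 (chr6:26285505-26285534, minus strand): aggtttcttaagttggtTTTAGaagttgct
HNRNPR (chr1:23344255-23344284, minus strand): gccattTCTAGtcgttttcaaagcgcctcg
SCD (chr10:100347233-100347262, plus strand): agtcaactcctcgcactttgcccctgcttg
RPLP1 (chr15:69452818-69452847, plus strand): cccctttcctcagctgccgccaaggtgctc
YBX1 (chr1:42682418-42682447, plus strand): attctcgctagttcgatcggtagcgggagc

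H4C11 and H4C12, histone H4 genes on chromosome 6, have the same first 30 bases, and so do H4C14 and H4C15 on chromosome 1. The placing of reads that fit several copies is not stated, so the signals of 7, 6, 4.5 and 4 at these 4 genes cannot be credited to 1 copy each. A match to TNTAA or TNTAG was found in 2 of the 25 starts (8%, 95% exact binomial interval 0.984 to 26.03), in H4C8 and HNRNPR. Among all 34943 starts of the promoter table, 9.22% held a match in the same 30 bases. On the opposite strand the shares were 8% and 9.19%. With 25 starts, of which 23 are distinct sequences, the interval is too wide to tell a higher from a lower share, and the rest of each peak was not read.

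The share of peaks in protein-coding genes was compared between the lines. It does not measure contact beyond small RNAs, since not all other peaks lie at small RNA genes. Of the 2048 peaks, 346 were at or within 200 bases of tRNA genes and 423 at other small RNA genes or pseudogenes. The remaining other peaks fell in neither group. In 293T, 11 of 120, 7 of 85 and 1 of 39 peaks were members, or 9.17% (95% exact binomial interval 4.67 to 15.8), 8.24% (3.38 to 16.2) and 2.56% (0.0649 to 13.5). In H9, 871 of 1605 peaks were members in the first library, 54.3% (51.8 to 56.7), and 23 of 199 in the second, 11.6% (7.47 to 16.8). The intervals here and below cover counting error only. The mean was 6.66% ± 3.57 (SD, n = 3) in 293T and 32.9% ± 30.2 (SD, n = 2) in H9. The difference of 26.3 percentage points reached the smallest p that 2 against 3 libraries allow (exact two-sided permutation p = 0.1). Without the first H9 library it was 4.90 points (exact permutation p = 0.5).

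**Figure D1:**
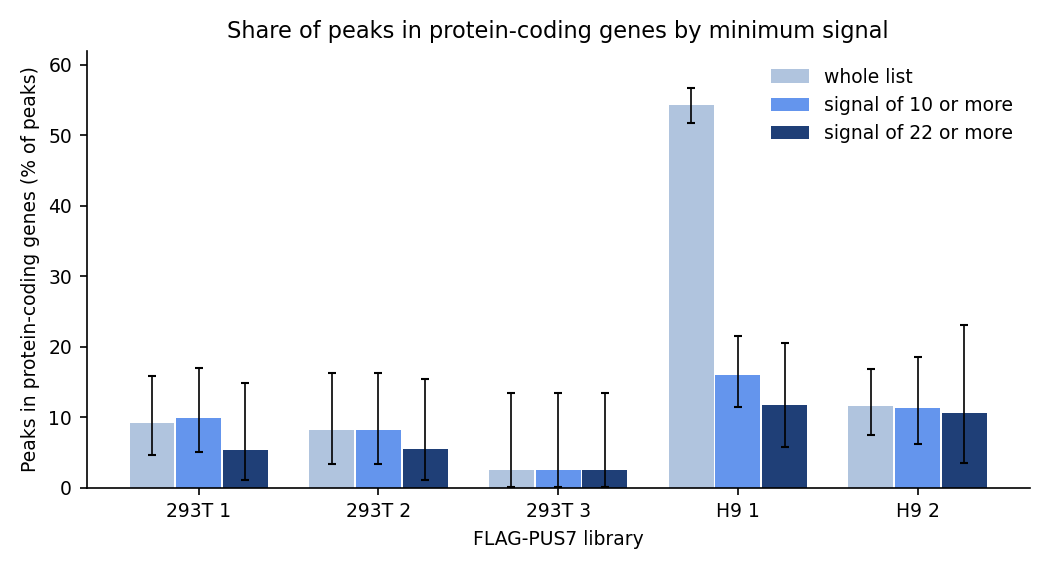
Share of each list's peaks that lie in protein-coding genes, in percent, for the 5 FLAG-PUS7 libraries; bars give the whole list and the peaks with a signal of at least 10 or at least 22, and error bars are 95% exact binomial intervals. The first H9 library falls from 54.3% to 16.1% and 11.8%, while the other libraries stay between 2.56% and 11.6%.

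Most members of the first H9 library were among its weakest peaks. Of its 871 members, 666 (76.5%) had the list minimum of 3, against 236 of its 734 other peaks (32.2%) and 56.2% of the list as a whole. Among peaks with a signal of at least 10, 36 of 224 were members, 16.1% (11.5 to 21.6), compared with 13 of 115 in the second H9 library, 11.3% (6.16 to 18.6). In 293T the same minimum left 11 of 111, 7 of 85 and 1 of 39 peaks. With a minimum of 22, the highest of the 5 list minima, members made up 11.8% and 10.6% in H9 and 5.36%, 5.56% and 2.56% in 293T, an H9 minus 293T difference of 6.71 points (exact permutation p = 0.1). With the minimum of 10 the difference was 6.79 points (exact permutation p = 0.2). Members carried 23.3% and 6.35% of the summed signal in H9, and 2.58%, 3.04% and 0.901% in 293T.

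By median signal, members were below the other peaks of their own library in 3 of 5 cases. Members had medians of 16, 16 and 46 (293T) and of 3 and 12 (H9). Other peaks of the same lists had medians of 20, 30 and 39.5 (293T) and of 5 and 11 (H9). The mean difference of medians was -2.5 ± 7.55 (SD, n = 5; exact sign-flip permutation p = 0.625, smallest possible 0.0625). Without the second 293T library it was 0.375 (exact permutation p = 0.875). As the mean of log2(signal + 1), members were lower at the smallest p possible, by a mean difference of -0.53 (exact sign-flip permutation p = 0.0625). The third 293T library had a single member, so its median rests on 1 peak.

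The strand of the peak, which the rule did not use, was mostly that of the gene among the weak peaks of the first H9 library and was mixed among its recurring ones. RNA of a gene is read from its own strand, so that a peak in the gene's transcript lies on that strand, called sense here. The promoter table gave the strand for the genes of 751 members. In the first H9 library 670 of 717 members were sense, 93.4% (91.4 to 95.1). In the second H9 library 11 of 15 were sense, 73.3% (44.9 to 92.2). In 293T, 5 of 11, 3 of 7 and 0 of 1 were sense, or 45.5% (16.8 to 76.6), 42.9% (9.90 to 81.6) and 0%. The mean was 29.4% ± 25.5 (SD, n = 3) in 293T and 83.4% ± 14.2 (SD, n = 2) in H9, a difference of 54.0 points at the smallest p possible (exact two-sided permutation p = 0.1). The 293T shares rest on 12 loci in all, 6 of them in more than 1 of these libraries, and of the 12 loci 6 were sense and 6 antisense.

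**Figure D2:**
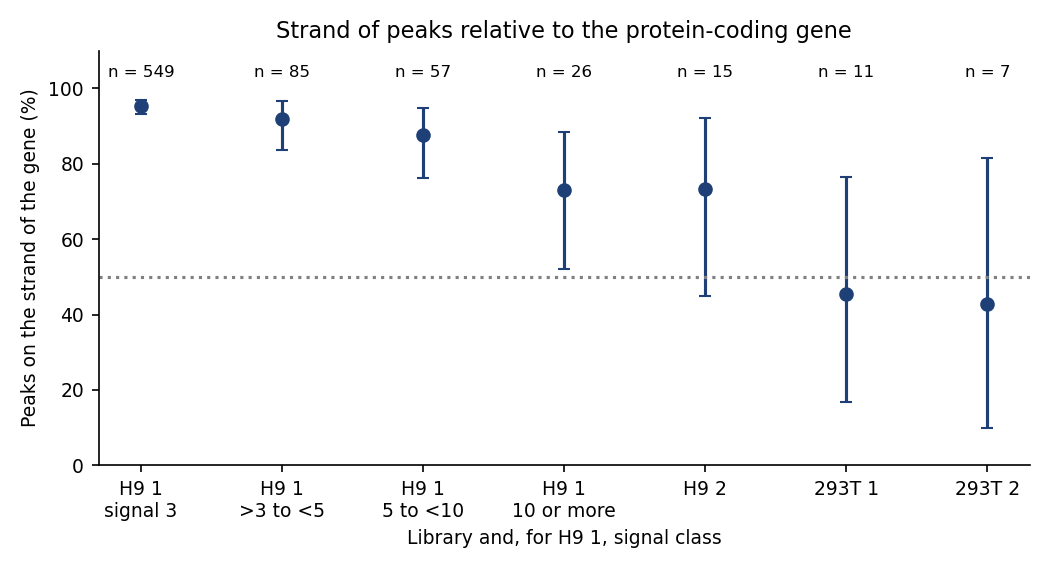
Percent of members that lie on the strand of their gene, with 95% exact binomial intervals; n is the number of members whose gene has a known strand, and the dotted line marks 50%. The first H9 library is split by signal, and the third 293T library, with 1 member, is left out. The share is 95.3% at a signal of 3 and 73.1% at a signal of 10 or more.

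Within the first H9 library the sense share was lower in the classes of higher signal. It was 95.3% (93.1 to 96.9) of 549 members at a signal of 3, 91.8% (83.8 to 96.6) of 85 above 3 and under 5, 87.7% (76.3 to 94.9) of 57 from 5 to under 10, and 73.1% (52.2 to 88.4) of 26 at 10 or more. Members of this library whose locus was in no other list were sense in 656 of 696 cases, 94.3% (92.3 to 95.9). Those whose locus recurred in another list were sense in 14 of 21 cases, 66.7% (43.0 to 85.4).

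Peaks that overlapped on the same strand in different lists were joined into loci, which gave 873 protein-coding loci. Of these, 30 (3.44%) were in 2 or more libraries, 7 in at least 3, 3 in 4 and 0 in all 5. Over all 1619 loci of the series, 13.9% were in 2 or more libraries, and of the 746 loci that the rule left out 195 were (26.1%), 32 of them in all 5. Seen from the shorter lists, nearly every member recurred: 10 of 11, 7 of 7 and 1 of 1 in 293T, and 23 of 23 in the second H9 library, where each was shared with the first H9 list. The other peaks of those lists recurred to a like extent, with 106 of 109, 76 of 78 and 38 of 38 in 293T and 171 of 176 in the second H9 library. In the first H9 library 29 of 871 members recurred, 3.33% (2.24 to 4.75), against 193 of 734 other peaks, 26.3% (23.1 to 29.6). Of its 66 members with a signal of 6 or more, the minimum of the second H9 list, 21 had a peak there, against 2 of its 805 weaker members. This split by signal was not counted for its other peaks. Without the first H9 library 8 loci recurred, and without the second 11.

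**Figure D3:**
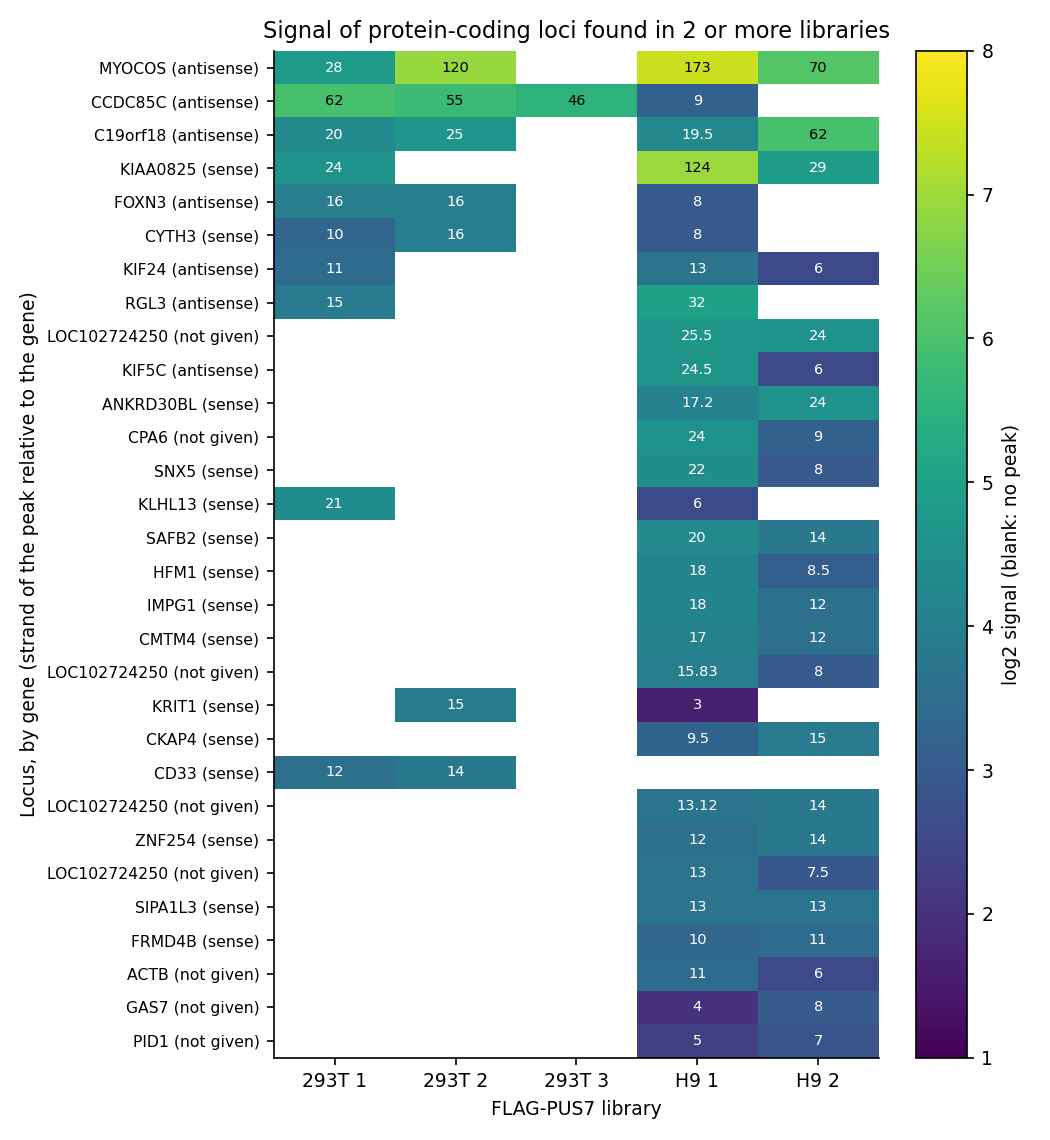
Signal of the 30 protein-coding loci found in 2 or more FLAG-PUS7 libraries, 1 row per locus and 1 column per library, coloured by log2 signal with the signal printed and blank where the library has no peak. MYOCOS, CCDC85C and C19orf18 have peaks in 4 libraries, and 19 loci are in both H9 libraries and no 293T library.

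The 3 loci in 4 libraries were all antisense to the gene they overlap. The strongest was at the first bases of MYOCOS, a gene named for lying opposite the myocilin gene (chr1:171600801-171601000, minus strand). Its signal was 28 and 120 in the first and second 293T libraries, and 173 and 70 in H9. The third 293T list, which begins at 22, had no peak there. Its second count, a further number the authors give for each peak without stating its origin, was 1 and 3 in these 293T libraries, compared with 13 and 29 for the H9 libraries.

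CCDC85C, which encodes a coiled-coil protein of cell junctions, had a peak on the opposite strand 20.3% of the way into the gene (chr14:99583001-99583200, plus strand). Its signal was 62, 55 and 46 in the 3 293T libraries and 9 in the first H9 library, with a second count of 0 or 1 in each. This was the only member of the third 293T list. The second H9 list, which begins at 6, held no peak there.

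C19orf18 had a peak antisense to it, 84.1% of the way into the gene (chr19:57960801-57961200 at its widest, plus strand), with signals of 20 and 25 in 293T and 19.5 and 62 in H9. The second count was 0 in all 4 libraries, and the third 293T list had no peak. Its nearest tRNA gene is 12482114 bases away, and those of MYOCOS and CCDC85C are 3885242 and 2733892 bases away.

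Of the 4 loci in 3 libraries, KIAA0825 and CYTH3 were sense, and FOXN3 and KIF24 antisense. CYTH3, an exchange factor for ARF GTPases, had signals of 10 and 16 in the first and second 293T libraries and 8 in the first H9 library (chr7:6175201-6175400). FOXN3, a forkhead transcriptional repressor, had 16 and 16 in the same 293T libraries and 8 in the first H9 library, on the strand opposite the gene (chr14:89585601-89585800). KIF24, a kinesin of the centriole, had 11 in the first 293T library and 13 and 6 in H9. All 3 had peaks of 1 bin in the same place in each list.

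KIAA0825 had signals of 24 in the first 293T library and 124 and 29 in H9 (chr5:94569401-94569600, minus strand). This bin also overlaps MTND6P3 and MTCYBP35, pseudogenes copied from mitochondrial genes, and its second count was 6 in 293T and 22 and 24 in H9. Copies of mitochondrial DNA in the nucleus resemble the mitochondrial transcripts themselves, and whether these reads came from the nuclear gene was not tested. In all, 13 members lay over such pseudogenes, in KIAA0825, PCBD2 and LOC102724250.

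LOC102724250, a predicted gene at the start of chromosome 1, had 4 peaks in each H9 library. In the first library all 4 lie over copies of mitochondrial genes, among them ND1, ND2, CO1 and CO2, and in the second 3 of 4 do, with signals of 13 to 25.5 and of 7.5 to 24. In the second H9 library the second count of its 3 plus-strand peaks was 10.5, 9 and 17, above signals of 7.5, 8 and 14. PCBD2, a dimerization cofactor and dehydratase, had 3 antisense peaks in the first H9 library with signals of 3, 5 and 21, all over such pseudogenes. Without the members over mitochondrial-type pseudogenes, 25 loci recurred instead of 30.

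Of the 12 protein-coding loci found in 293T, 10 were also in H9. The same count was not made for the loci that the rule left out. CD33, a lectin receptor best known from myeloid cells, had a sense peak in the first and second 293T libraries with signals of 12 and 14 and none in H9. The CD33 peak also overlaps LOC107985327, a gene that is not protein-coding. SNTB2, a syntrophin, had a peak in the first 293T library only, with a signal of 12. RGL3, an exchange factor for Ral, had an antisense peak with 15 in the first 293T library and 32 in the first H9 library. KLHL13, an adaptor of a ubiquitin ligase, had 21 and 6 in these libraries, and KRIT1, a vascular junction protein, had 15 in the second 293T library and 3 in the first H9 library.

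A further 19 loci were in both H9 libraries and in no 293T list, 10 of them sense, 1 antisense and 8 in genes whose strand was not given. This split was likewise not made for the loci that the rule left out, so it is not shown to be particular to protein-coding genes. SAFB2, a nuclear scaffold and RNA-binding protein, had signals of 20 and 14 in the first and second H9 libraries. CMTM4 had 17 and 12, ZNF254 had 12 and 14, SIPA1L3 had 13 and 13, CKAP4 had 9.5 and 15, and GAS7 had 4 and 8. The second count was 0 in both libraries at these 6 genes. SNX5, an endosomal sorting nexin, had 22 and 8, with a second count of 1 and 0, in a bin at its 3′ end (98.9% of the gene). CKAP4, a membrane protein of the endoplasmic reticulum, likewise had its peak near the 3′ end, at 96.8%. ACTB, which encodes beta-actin, had 11 and 6. Because the 293T lists begin at 9 to 22, a signal such as these could fall below them, and absence from a 293T list does not show absence of contact.

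At most other loci shared by the H9 libraries the second count was higher in the second library. ANKRD30BL, with signals of 17.2 and 24, had second counts of 1.35 and 23. KIF5C, a neuronal kinesin, had an antisense peak with signals of 24.5 and 6 and second counts of 3.24 and 16. FRMD4B had signals of 10 and 11 and second counts of 2 and 10. HFM1, a helicase of meiosis, had 18 and 8.5 with second counts of 2.46 and 8.95. CPA6 had 24 and 9 with 1 and 4, IMPG1 had 18 and 12 with 3 and 2, and PID1 had 5 and 7 with 2 and 4. Some of these loci also overlap genes that are not protein-coding. They are KIF5C-AS1 at KIF5C, LOC105375886 at CPA6, and LOC107985804 and LOC110467533 at ANKRD30BL. Which gene the reads came from was not tested. Of the 23 loci in both H9 libraries, the second count was higher in the second library at 13 and 0 in both at 7. The signal was higher in the first library at 14 and lower at 8.

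Over whole lists, a second count of 0 was found at 8 of 11, 6 of 7 and 0 of 1 members in 293T, 792 of 871 (90.9%) in the first H9 library and 8 of 23 (34.8%) in the second. Among the other peaks it was 0 at 77.98%, 67.95% and 78.95% in the 293T lists, and at 66.4% and 37.5% in the H9 lists. The second count reached or passed the signal at 5 of 23 members in the second H9 library (21.7%) and at 37 of its 176 other peaks (21.0%), and at 0 members elsewhere. The median log2 ratio of signal + 1 to second count + 1 for members was 3.86, 4.09 and 4.56 in the 293T libraries and 2 and 1 in the H9 libraries, and 4, 4.52, 5.12, 2.2 and 1.81 for other peaks. It was lower for members in 5 of 5 libraries, by -0.43 ± 0.27 (SD, n = 5), at the smallest p possible (exact sign-flip permutation p = 0.0625). It was smaller with a pseudocount of 5 in place of 1 (-0.19) and without the members over mitochondrial-type pseudogenes (-0.26), each with an exact permutation p = 0.125. Set against other peaks without those at tRNA genes, it was -0.05 (exact permutation p = 1). The authors' p did not move with the second count in 1 direction. In the first H9 library, 1-bin peaks of signal 3 had an authors' p (test not given) of 0.0301, 0.00379 and 0.000782. Their second counts were 0, 1 and 2. In the first 293T library the authors' p was 2.61e-10 at KLHL13 (signal 21, second count 0) and 0.0158 at KIAA0825 (24 and 6). The ratio is thus not read as enrichment over background, and what the second count measures in each list was not tested.

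The members of the first H9 library lay in 744 genes, 3.71% of all 20037 protein-coding genes. Genes with a peak there were long, with a median of 76908 bases against 24115 for all protein-coding genes. Of genes over 100 kb, 9.03% (8.08 to 10.1) held a peak, compared with 4.29% (3.77 to 4.86) from 30 to 100 kb, 2.20% (1.83 to 2.62) from 10 to 30 kb and 1.49% (1.19 to 1.84) up to 10 kb. Per length the order was the reverse, with 0.445 peaks per Mb of gene in the longest class and 3.94 in the shortest. A peak over several genes was counted in each of them, which held for 23 members over all lists. Among these, a peak with a signal of 3 in the first H9 library overlaps all the nested genes from PCDHGA1 to PCDHGC5. The gene counts, length shares and peaks per Mb thus count such a peak more than once. Genes with peaks in 293T had a median of 92655 bases (12 genes) and those of the second H9 library 104504 (20 genes).

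Along the gene, sense peaks of the first H9 library were most frequent at both ends. Of 650 sense peaks over 1 gene, 98 lay in the first 10% of the gene, 15.1% (12.4 to 18.1), and 109 in the last 10%, 16.8% (14.0 to 19.9), where even placement gives 10%. Within 1 kb of the gene's end lay 67, 10.3% (8.08 to 12.9), compared with 5.35% if each peak were placed evenly along its gene. Within 1 kb of the gene's start lay 54, 8.31% (6.30 to 10.7). In genes up to 10 kb the last 10% held 24.0% (14.9 to 35.3), in genes of 10 to 30 kb 24.1% (16.5 to 33.1), in genes of 30 to 100 kb 20.0% (14.6 to 26.3) and in genes over 100 kb 9.33% (6.13 to 13.5). In the same 4 length classes, from short to long, the first 10% held 14.7%, 15.2%, 11.8% and 17.5%. Of the 47 antisense peaks, 8 lay in the first 10%, 17.0% (7.65 to 30.8), and 4 in the last 10%, 8.51% (2.37 to 20.4). Exons, introns and untranslated regions were not analysed here, since the gene table gives only the ends of genes.

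**Figure D4:**
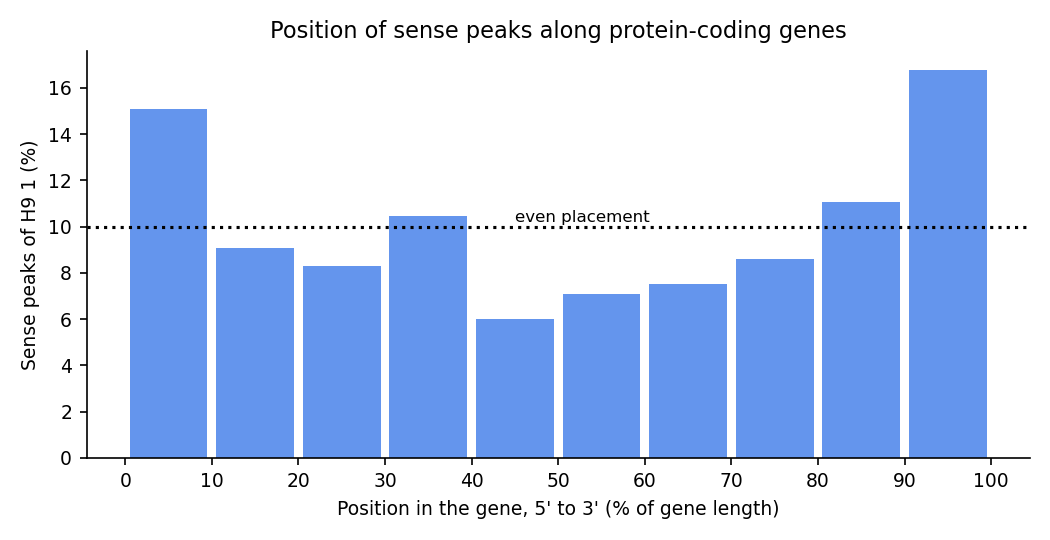
Position of the 650 sense peaks of the first H9 library along their genes, in steps of 10% of gene length from 5′ to 3′, as percent of peaks; the dotted line marks the 10% of even placement. The first step holds 15.1% of peaks and the last 16.8%.

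Several genes held more than 1 of these peaks: 36 genes, or 0.18% of protein-coding genes, had 3 or more in the first H9 library. SNRPN and SNURF, which overlap, hold the same 3 peaks and were counted as separate genes. PTPRG, a receptor tyrosine phosphatase with a gene of 736039 bases, had 6 sense peaks with signals of 3 to 5, all in the first 48.2% of the gene. PHC1, a Polycomb protein, had 5 sense peaks of 3 to 5 between 60.3% and 95.8% of the way along a gene of 27625 bases. PTPRZ1, a related phosphatase, had 5 sense peaks of 3 to 4, from the first bin to the last of its gene. SEMA6A, a semaphorin, had 5 peaks of 3.

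Further genes with 4 peaks each were of mixed function. JARID2, a partner of Polycomb repressive complex 2, had signals of 3 to 4. PODXL and CD24, surface glycoproteins abundant on pluripotent stem cells, had 3 to 5 and 3 to 7. SCD, the stearoyl-CoA desaturase, had 3.67 to 5, and NR6A1, an orphan nuclear receptor, had 3 to 4. The RNA-binding proteins HNRNPH1, RBPMS, SFPQ and YBX1 each had 3 to 4, and the chaperone HSP90AB1 had 3 at each. ROBO2, an axon guidance receptor with a gene of 1743290 bases, likewise had 4 peaks of 3. Each of these ROBO2 peaks had a second count of 0 and an authors' p of 0.0301, from a test that is not given. All peaks of JARID2, CD24, SCD, NR6A1, HNRNPH1, YBX1, HSP90AB1 and ROBO2 were sense, and the strand of PODXL, RBPMS and SFPQ was not given. Each of these multi-peak genes except LOC102724250 was without a peak in the other 4 lists.

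Gene lists were set beside the 3.71% of all protein-coding genes with a peak in the first H9 library. The RNA levels of these genes were not analysed here.

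**Figure D5:**
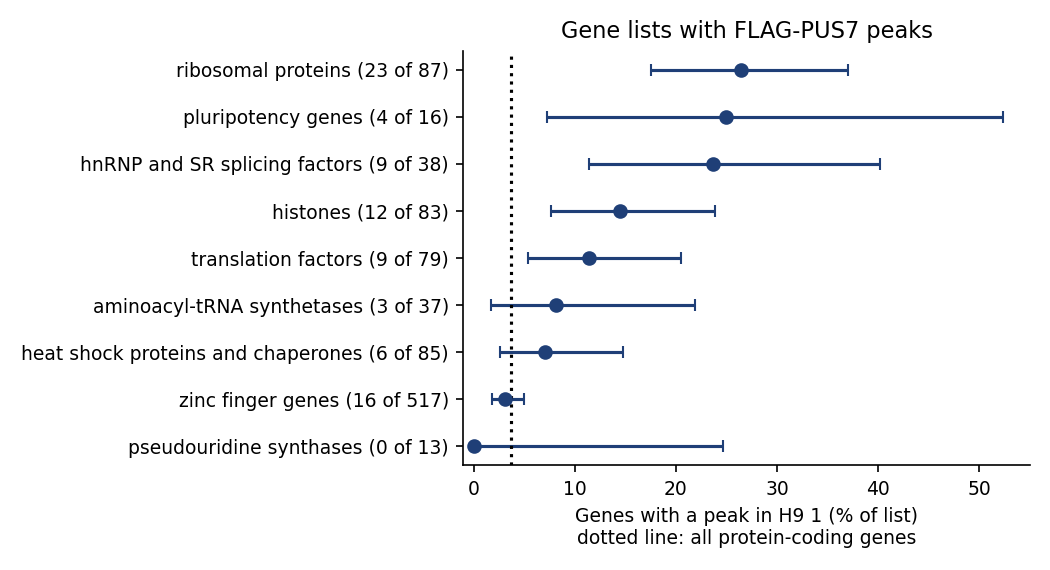
Percent of the genes in each list with a member peak in the first H9 library, with 95% exact binomial intervals; the dotted line marks the 3.71% of all protein-coding genes. Ribosomal protein genes are at 26.4% and zinc finger genes at 3.10%.

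Ribosomal protein genes, with 23 of 87 (26.4%, 17.6 to 37.0), and hnRNP and SR splicing factors, with 9 of 38 (23.7%, 11.4 to 40.2), had high shares. The highest ribosomal protein signals were 9 at RPLP0, a protein of the ribosomal stalk, and 5 at RPS12 and RPL39. The other peaks of this list had 3 or 4, and all 21 with a known strand were sense. HNRNPR had 5, 3 and 3, and SRSF2, an SR splicing factor, had 4 and 3.

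Translation factors had 9 of 79 (11.4%, 5.34 to 20.5). EEF1A1, the elongation factor that brings aminoacyl-tRNA to the ribosome, had signals of 13, 7 and 4.5, each with a second count of 0. EEF2, the translocation factor, had 3 peaks of 3, and EIF4G1, EIF4G2, EIF5, EIF5A and PABPC1 had 3 to 5. Genes such as EEF1A1, ACTB and the ribosomal proteins have near-identical processed copies elsewhere in the genome, so that their signals are uncertain to that extent.

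Histone genes had 12 of 83 (14.5%, 7.7 to 23.9), with a median length of 502 bases. They were H4C2, H4C8, H4C9, H4C11, H4C12, H4C14, H4C15, H3C11, H3C14, H3C15, H2AC14 and H2BC12, all of the clusters used in S phase, with signals of 3 to 7. H2BC12, on the minus strand, was counted only through the plus-strand peak at the start of H4C9, which overlaps both genes. Of the pluripotency list, LIN28A, DPPA4, TERF1 and DNMT3B had peaks (4 of 16, 25%, 7.27 to 52.4), with signals of 3 or 4, while POU5F1, NANOG and SOX2 had none. The 0 of 13 pseudouridine synthase genes with a peak included PUS7 itself, a share that allows up to 24.7%.

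Aminoacyl-tRNA synthetases (3 of 37, 8.11%, 1.70 to 21.9), heat shock proteins and chaperones (6 of 85, 7.06%, 2.63 to 14.7) and zinc finger genes (16 of 517, 3.10%, 1.78 to 4.98) had shares whose intervals include 3.71%. HSPG2, matched to the chaperones by its symbol, encodes perlecan, a matrix proteoglycan, and had a signal of 12. ZNF254 was the only gene of any of these lists with a peak outside the first H9 library. The shares of all lists therefore rest on 1 library and have no replicate.

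Few members lay near the rule's limit around tRNA genes. The nearest members to a tRNA gene were the 2 peaks at H4C8, 926 and 1326 bases away. The peaks just left out were those in CTC1, 35 bases from a tRNA gene, with signals of 12 and 13 in the first and second 293T libraries and 7 in the first H9 library, and 1 in VAC14, 24 bases away. In all, 28 peaks over protein-coding genes were left out for a tRNA gene and 194 for another small RNA gene or pseudogene.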

How the data were processed

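Peak lists of 5 FLAG-PUS7 iCLIP libraries were analysed; the 10 deposited tables of tRNA rows were not used. Per the submitters' processing notes, Bowtie, SAMtools, bedtools and the build hg38 were used, without roles or versions, and no peak caller is named in the labels or file headers. Each deposited list gives, per peak, a signal (per 200-base bin, averaged over bins), a p-value of the authors, whose test is not given, and the natural log of a second whole number with a floor. The second count is exp(value) minus 1; the deposited lists do not state whether 1 had been added before the log, and otherwise each value above the floor is 1 higher and 0 may stand for 1.

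Genes were taken from RefSeq GRCh38.p14 and strand from its promoter table (15843 of 20037 protein-coding genes). Coordinates are 1-based. Libraries were compared by exact permutation, with 4 tests in all (lowest Benjamini-Hochberg adjusted p = 0.133), and lists by exact binomial intervals. Functions were tested on simulated peaks. Named genes are those in 2 or more libraries, the 15 with most peaks in 1 library (ROBO2, tied with the last in count and signals, was added), and the 5 strongest members of each library; genes of the lists or with a start sequence, SNTB2, PCBD2, CTC1 and VAC14 were named after their values were seen. Members and lists were chosen with earlier results of these data known. Python 3.11.15, pandas 2.3.3 and SciPy 1.17.1 were used.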

Additional observations from a re-analysis of the deposited data

How the results depend on the processing

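The H9 minus 293T difference in the share of peaks in protein-coding genes kept its sign in 11 of 11 alternatives, from 4.90 to 47.6 percentage points, and that in the sense share in 8 of 8, from 39.2 to 64.0 points. Leaving out 1 library at a time gave 8 to 30 recurrent loci, with 8 without the first H9 library and 11 without the second; the 7 other alternatives gave 25 to 30. The difference in median signal between protein-coding and other peaks, -2.5, ranged from -4.75 to 0.375 with 1 library left out and turned positive without the second 293T library; the cause was not tested. The difference in the ratio of signal to second count had the same sign in 9 of 9 alternatives (-0.55 to -0.05), but the smallest p of 5 libraries, 0.0625, was not kept with a pseudocount of 0.5 or 5 or without mitochondrial-type pseudogenes (exact permutation p = 0.125 each), and against other peaks without tRNA it was -0.05 (p = 1). The minimum of 22, the alternatives without mitochondrial-type pseudogenes and the ratio without tRNA peaks were chosen after seeing the data. No paired analysis was possible because FLAG-PUS7 and knockout libraries share replicate numbers but only the former have peak lists, and H9 and 293T are different cells. Few libraries and unknown depth limit all comparisons.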
